A study of Mus musculus with 12 samples.

Results

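Ubd, Isg15, Uba7, Ube2l6, Herc6 and Usp18 encode the ubiquitin-like modifiers FAT10 and ISG15 and the interferon-induced enzymes that attach ISG15 to proteins and take it off again. They were followed in the small intestine of mice after allogeneic haematopoietic cell transplantation, with and without tauroursodeoxycholic acid (TUDCA), a taurine-conjugated bile acid. The genes were chosen by name, with earlier results of these data known. A probe set counted if the platform annotation gave it 1 of these genes and no other. Each of the 6 genes had 1 such probe set, out of 21408 genes named in this way, and the arrays hold 23991 probe sets in all.

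The recipients in both groups were wild-type BALB/c mice that had been irradiated over the whole body and given bone marrow and T cells of C57BL/6N mice. Donor T cells can attack the gut of such recipients (graft-versus-host disease). The intestine was taken at day 14. By then 6 mice had received 200 mg/kg TUDCA into the peritoneum every day and 6 the same volume (200 µl) of vehicle, with 1 array for each, and the first day of dosing is not stated in the labels. No group without transplantation or without T cells is analysed here, so the level in a healthy gut is not known from these arrays. Ages, cages and transplantation days are not stated there either. P-values measure the spread between these 12 arrays.

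FAT10 and ISG15 each consist of a pair of ubiquitin-like domains and end in a pair of glycines through which they are joined to lysines of other proteins. FAT10 is induced by interferon gamma together with tumour necrosis factor, is activated by the enzyme UBA6 and passed on by UBE2Z, and sends its targets to the proteasome. ISG15 is induced chiefly by type I interferons, is activated by UBA7, passed to UBE2L6 and placed on targets by ligases, of which HERC6 is the main one in mice. USP18 removes ISG15 and also holds back signalling at the type I interferon receptor.

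The upstream sequences of Isg15, Ubd and Uba7 are shown because these genes had, in that order, no detected difference, the largest fall and the fall with the smallest p-value among the 6. They are the 250 bases before the start of the gene in RefSeq, build GRCm38.p6, at chr4:156200819-156201068 (minus strand), chr17:37193642-37193891 (plus strand) and chr9:107975317-107975566 (plus strand), written in the direction of transcription. Capitals mark matches to motifs of interferon and NF-kappaB signalling.
Isg15: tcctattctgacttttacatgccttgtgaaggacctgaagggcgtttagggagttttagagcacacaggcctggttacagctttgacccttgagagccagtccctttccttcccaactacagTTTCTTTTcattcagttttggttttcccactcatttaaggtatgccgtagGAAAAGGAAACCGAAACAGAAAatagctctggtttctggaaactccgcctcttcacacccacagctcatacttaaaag
Ubd: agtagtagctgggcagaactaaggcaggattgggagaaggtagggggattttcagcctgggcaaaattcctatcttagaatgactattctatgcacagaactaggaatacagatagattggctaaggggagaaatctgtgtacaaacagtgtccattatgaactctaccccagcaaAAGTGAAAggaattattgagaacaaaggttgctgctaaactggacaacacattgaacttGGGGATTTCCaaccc
Uba7: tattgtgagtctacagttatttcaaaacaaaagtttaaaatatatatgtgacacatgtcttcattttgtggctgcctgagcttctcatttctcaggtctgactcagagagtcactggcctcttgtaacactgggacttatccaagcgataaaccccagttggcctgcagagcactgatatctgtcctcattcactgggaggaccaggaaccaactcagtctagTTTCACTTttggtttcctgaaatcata
Both strands were searched. The core of the interferon-stimulated response element, GAAA, then any 2 bases, then GAAA, matched 3 times in Isg15, at bases -78 to -69, -72 to -63 and -66 to -57 counted from the start, in 1 unbroken run of capitals. It matched in 1 of the 5 genes with a sequence (Usp18 had none in the table) and in 2.98% of all 32851 promoters of this length. The shorter core bound by interferon regulatory factors, AANNGAAA, which lies within the longer core, matched in Isg15, Ubd (bases -74 to -67) and Uba7 (bases -27 to -20, minus strand). It was also present in 21.3% of all promoters. The kappaB motif matched in Ubd alone of the 5 (bases -15 to -6) and in 3.9% of all promoters, while the gamma-activated site, TTCNNNGAA, matched in none of the 5 and in 7.02% of all. These matches describe letters in the windows and show nothing about binding. The regulatory factor core and the kappaB motif were chosen after the sequences had been seen. Their shares of all promoters therefore do not tell how unusual the matches are.

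The deposited values are log2 intensities from RMA, an algorithm that corrects background, equalises the distributions of the arrays and summarises the probes of a set. Array medians lay between 5.90 and 5.95, correlations between arrays between 0.984 and 0.993, and the median of all differences was 0.01. The sample numbers of the labels lie either under 100 (low range, 2 TUDCA and 4 vehicle arrays) or above it (high range, 4 TUDCA and 2 vehicle arrays), and what they stand for is not given. Differences were therefore estimated within the ranges by limma, with p-values adjusted by Benjamini-Hochberg over all probe sets and a threshold of 0.05. The description field of the labels names CXCL12-abundant reticular cells, whereas the other fields name small intestine. The mean level of 13 markers of intestinal epithelium was 11.13 to 11.35 on the arrays, and that of 9 markers of reticular cells was 6.46 to 6.83. Levels of different probe sets cannot be set against each other, so these means do not decide between the fields. Of the epithelial markers, Fabp2 had means of 13.11 with TUDCA and 13.27 with vehicle, and Lct 5.17 and 5.34. The highest values on the arrays were 13.42 to 13.84, so an epithelial transcript lay near the top. The fields that name small intestine were followed.

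With TUDCA, the transcripts of the modifier FAT10 (Ubd) and of the ISG15 E1 and E2 enzymes (Uba7 and Ube2l6) fell, and none of the 6 genes rose. Ubd was 2.81-fold, Uba7 1.44-fold and Ube2l6 1.29-fold lower. The ligase gene Herc6 had a difference of -0.64 that missed the threshold, and Usp18 and the modifier gene Isg15 itself did not pass. Thus 3 of the 6 were called lower, where 1.52% of all probe sets were, and 0 of 6 were called higher, against 1% of all. At an unadjusted p under 0.05 in limma, 0 were higher and 4 of the 6 were lower, against 6.84% lower of all probe sets. The median difference of the 6 was -0.45. Because the genes were chosen with earlier results known, these shares and the ranks below are descriptive and give no independent support. In the low range alone 4 of the 6 (Ubd, Uba7, Ube2l6 and Herc6) were called lower, against 1.38% of all probe sets. In the high range alone, with 2 vehicle arrays, 0 of the 6 were, against 0.0125% of all, and at an unadjusted p under 0.05 in limma 1 of the 6 was lower there (Uba7), against 4.67% of all. With the replicate number as a block beside the range, 0 of the 6 were called, against 190 of the 23991 probe sets called lower. The labels do not say that these numbers pair mice.

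**Figure D1:**
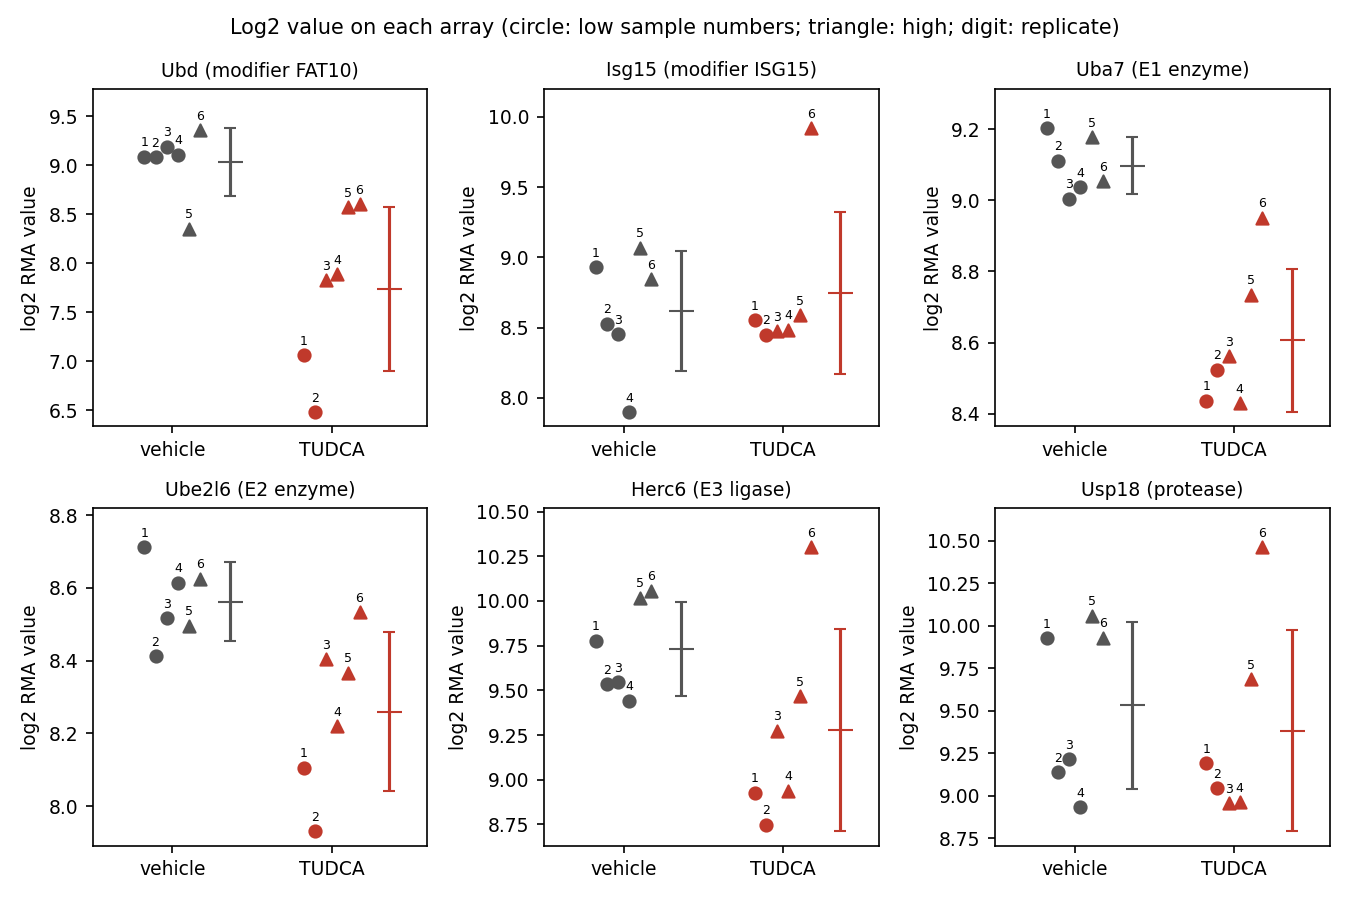
Log2 RMA value (vertical axes, each on its own scale) of the 6 genes on each array of vehicle-treated and TUDCA-treated mice; circles are low and triangles high sample numbers, digits are replicates, and bars give the mean and SD of 6 arrays. The groups are fully apart for Uba7, and TUDCA replicate 6 is the highest TUDCA array for each gene.

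Ubd had a mean log2 value of 7.74 ± 0.84 (SD, n = 6) with TUDCA and 9.03 ± 0.35 (SD, n = 6) with vehicle. In the low range the TUDCA arrays were at 7.06 and 6.48 and the vehicle arrays at 9.08, 9.08, 9.19 and 9.11. In the high range the TUDCA arrays were at 7.82, 7.89, 8.57 and 8.60 and the vehicle arrays at 8.35 and 9.36. The lowest values were thus those of TUDCA replicates 1 and 2, and the groups overlapped only because vehicle replicate 5 lay below TUDCA replicates 5 and 6. The log2 difference was -1.49 ± 0.29 (SE, 95% interval -2.11 to -0.87, limma adjusted p = 0.0137), and all 6 TUDCA arrays lay below the vehicle mean of their range. Only 13 of the 23991 probe sets had a more negative difference.

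The Ubd difference was -2.34 (5.08-fold lower) in the low range and -0.63 (1.55-fold lower) in the high range. The interaction of treatment and range had an unadjusted p of 0.000512 and a limma adjusted p of 0.478, so a difference between the ranges was not established over all probe sets. An unadjusted p under 0.05 for this interaction was found for 7.68% of all probe sets and for 2 of the 6 genes, Ubd and Ube2l6. Without TUDCA replicate 1 or 2 the call of Ubd ended (-1.38, adjusted p = 0.0709, and -1.17, adjusted p = 0.0576, in limma). It also ended with robust variance estimation, at the same difference (adjusted p = 0.0622). Without vehicle replicate 5 the difference was -1.89 (adjusted p = 0.000816).

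For Isg15 no difference was detected. In the low range its TUDCA arrays were at 8.56 and 8.45 and its vehicle arrays at 8.93, 8.53, 8.45 and 7.90. In the high range the TUDCA arrays were at 8.47, 8.49, 8.59 and 9.92 and the vehicle arrays at 9.07 and 8.85. The single high value was that of TUDCA replicate 6. The means were 8.75 ± 0.58 (SD, n = 6) with TUDCA and 8.62 ± 0.43 (SD, n = 6) with vehicle, and the log2 difference within ranges was -0.02 ± 0.24 (SE, 95% interval -0.52 to 0.48, limma adjusted p = 0.984). The interval does not hold a fall of the size of the Ubd estimate, but it does hold falls of the size of the Ube2l6 (-0.36) and Usp18 (-0.33) estimates. Without TUDCA replicate 6 the difference was -0.18 (adjusted p = 0.669), and leaving out any 1 of 5 other arrays turned its sign, with values up to 0.05.

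Uba7, the E1 enzyme that activates ISG15, separated the groups completely. Its TUDCA arrays ran from 8.43 over a median of 8.54 to 8.95, and its vehicle arrays from 9.005 over a median of 9.08 to 9.20. Such separation with TUDCA below was seen for 1 of the 6 genes and for 1.18% of all probe sets. The log2 difference was -0.53 ± 0.09 (SE, 95% interval -0.71 to -0.34, limma adjusted p = 0.00477), with -0.61 in the low and -0.45 in the high range. The call held whichever single array was left out (adjusted p up to 0.0293), and ended in the high range alone (adjusted p = 0.347).

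Ube2l6, the E2 enzyme that takes ISG15 over from UBA7, had a smaller fall. Its TUDCA arrays ran from 7.93 over a median of 8.29 to 8.53 and its vehicle arrays from 8.41 over 8.57 to 8.71, so that 5 of 6 TUDCA arrays lay below every vehicle array and TUDCA replicate 6 did not. The log2 difference was -0.36 ± 0.09 (SE, 95% interval -0.55 to -0.17, limma adjusted p = 0.0422), with -0.55 in the low and -0.18 in the high range. This call was close to the threshold. It held without TUDCA replicate 3, TUDCA replicate 6 or vehicle replicate 5 and ended without any 1 of the 9 other arrays (adjusted p from 0.058 to 0.18), and without the range term (-0.30, adjusted p = 0.124). It ended too after a second quantile normalisation (-0.35, adjusted p = 0.0577) and without a variance trend (adjusted p = 0.0642).

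Herc6, the ligase, ranged from 8.75 over a median of 9.11 to 10.30 with TUDCA and from 9.44 over 9.66 to 10.06 with vehicle. Here 4 of 6 TUDCA arrays lay below every vehicle array, TUDCA replicate 5 lay among the vehicle arrays, and TUDCA replicate 6 lay above all of them. The log2 difference was -0.64 ± 0.17 (SE, 95% interval -1.01 to -0.27, limma adjusted p = 0.0747). It lay farther from the threshold without the range term (-0.45, adjusted p = 0.338) and without TUDCA replicate 2 (-0.58, adjusted p = 0.215). With robust variance estimation the adjusted p was 0.134. Without TUDCA replicate 6 the difference was -0.77 and passed (adjusted p = 0.00107). In that fit 4 of the 6 genes were called lower, against 1.49% of all probe sets, and without TUDCA replicate 1 or 2 only Uba7 was, against 0.629% and 0.788%.

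Usp18, the protease that removes ISG15, ranged from 8.96 over a median of 9.12 to 10.46 with TUDCA and from 8.93 over 9.57 to 10.06 with vehicle. The groups overlapped over nearly their whole range, and the highest value was again that of TUDCA replicate 6. The log2 difference was -0.33 ± 0.24 (SE, 95% interval -0.85 to 0.18, limma adjusted p = 0.601). Without the range term it was -0.15 (adjusted p = 0.849).

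**Figure D2:**
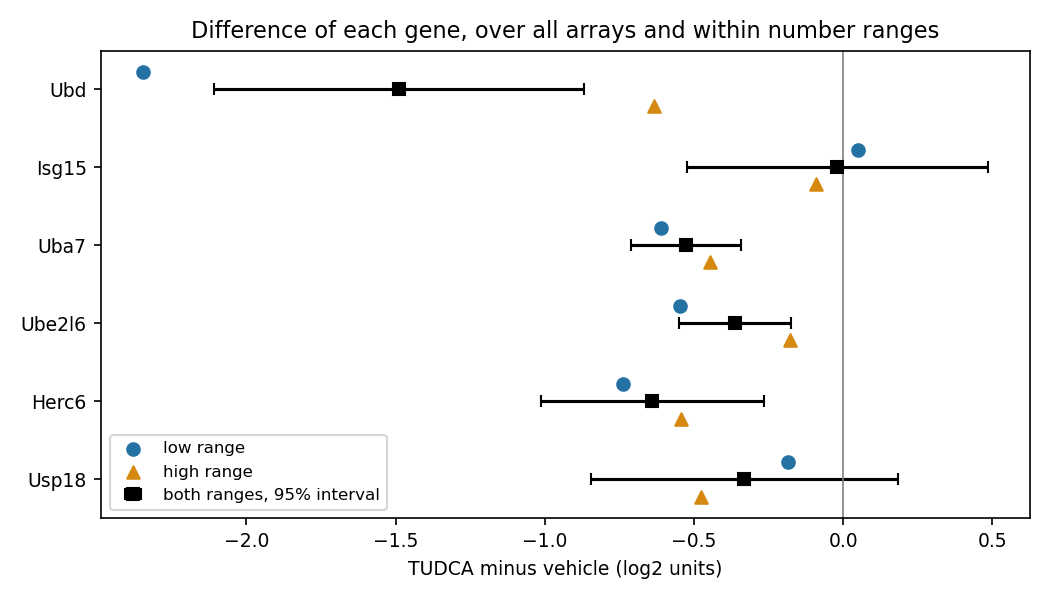
Log2 difference of TUDCA minus vehicle (horizontal axis) for the 6 genes; squares give the estimate over both number ranges with its 95% interval, circles the low range (2 TUDCA, 4 vehicle arrays) and triangles the high range (4 and 2). The interval of Isg15 runs from -0.52 to 0.48, and the range estimates of Ubd, -2.34 and -0.63, lie farthest apart.

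Whether the genes changed by different amounts was tested for all 15 pairs on the difference of both genes within an array. The exact permutation test was two-sided and used the 225 ways to relabel arrays inside the ranges. Ubd fell more than Isg15 by a log2 difference of -1.47 (95% interval -2.46 to -0.48, exact p = 0.0178, adjusted p = 0.0778). Herc6 lay below Isg15 in its change, Isg15 minus Herc6 being 0.62 (95% interval 0.27 to 0.97), with the smallest p the test can give (exact p = 0.00444, adjusted p = 0.0667). None of the 15 pairs passed after adjustment. A single pair at that smallest p could not pass by itself, so this outcome says little about Isg15 and Herc6. Without vehicle replicate 5, 6 pairs passed (adjusted p = 0.0333 in the exact permutation test): Ubd against each of the 5 others, and Isg15 against Herc6. All of these lay at the smallest p of that fit. None passed when any other single array was left out, where their adjusted p reached 0.229.

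The variation between mice of the same group was compared next. Deviations from the mean of the same group and range were compared over the 12 arrays, which leaves 8 free values, with exact permutation within group and range and adjustment over 15 pairs. The closest pairs were Usp18 and Herc6 (Pearson's r = 0.91, exact adjusted p = 0.0174, Spearman's rho = 0.92, exact adjusted p = 0.0239), Isg15 and Usp18 (r = 0.91, exact adjusted p = 0.0174, rho = 0.72, exact adjusted p = 0.0239) and Isg15 and Herc6 (r = 0.89, exact adjusted p = 0.0174, rho = 0.78, exact adjusted p = 0.0239). Without the 2 arrays farthest from the median of the first gene of each pair, r was 0.81, 0.82 and 0.77. By r among 21556 other probe sets naming 1 gene, Usp18 had rank 40, Herc6 66 and Uba7 203 for Isg15. Herc6 had rank 23 for Usp18. Other genes thus followed them more closely, and the passing pairs are not particular to this set. By r 7 of the 15 pairs passed and by rho 3, none of them with Ubd. Of the 10 pairs among the other 5 genes, those of Ube2l6 with Isg15 (r = 0.48, exact adjusted p = 0.27), Uba7 (r = 0.51, exact adjusted p = 0.224) and Usp18 (r = 0.64, exact adjusted p = 0.137) did not pass. Between Ubd and Isg15 r was 0.31 (exact adjusted p = 0.539) and rho 0.13 (exact adjusted p = 0.643), and r without the 2 arrays farthest from the Ubd median was 0.50. Ubd had r of 0.55 with Herc6, 0.54 with Ube2l6, 0.49 with Usp18 and 0.32 with Uba7 (exact adjusted p from 0.0944 to 0.499). Without the same 2 arrays these were 0.70, 0.51, 0.69 and 0.61. That no pair with Ubd passed does not show that Ubd varied independently. Without TUDCA replicate 6 r was 0.81 for Usp18 and Herc6, 0.77 for Isg15 and Usp18, 0.55 for Isg15 and Herc6 and -0.06 for Ubd and Isg15. The calls of the 3 closest pairs ended in that fit and also without TUDCA replicate 3, 4 or 5 or vehicle replicate 1 (exact adjusted p up to 0.163). Without TUDCA replicate 3, 4 or 5 or vehicle replicate 1 their r was still 0.88 to 0.97. Leaving out such an array also leaves the exact test fewer permutations. Uba7 paired with Usp18 (r = 0.90, exact adjusted p = 0.025), Herc6 (r = 0.90, exact adjusted p = 0.025) and Isg15 (r = 0.82, exact adjusted p = 0.025) passed by r but not by rho (0.85, 0.71 and 0.70, exact adjusted p = 0.0781, 0.101 and 0.0781), with r of 0.77, 0.54 and 0.68 without the 2 farthest arrays. These calls ended without TUDCA replicate 3, 4, 5 or 6 or vehicle replicate 1 or 2 (exact adjusted p up to 0.171). Their r was 0.77, 0.76 and 0.51 without TUDCA replicate 6 and 0.79 to 0.92 without any of the others named. Ube2l6 and Herc6 (r = 0.70, exact adjusted p = 0.0484, rho = 0.73, exact adjusted p = 0.0781, r = 0.65 without the 2 farthest arrays) lost its call without any 1 of 11 arrays.

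**Figure D3:**
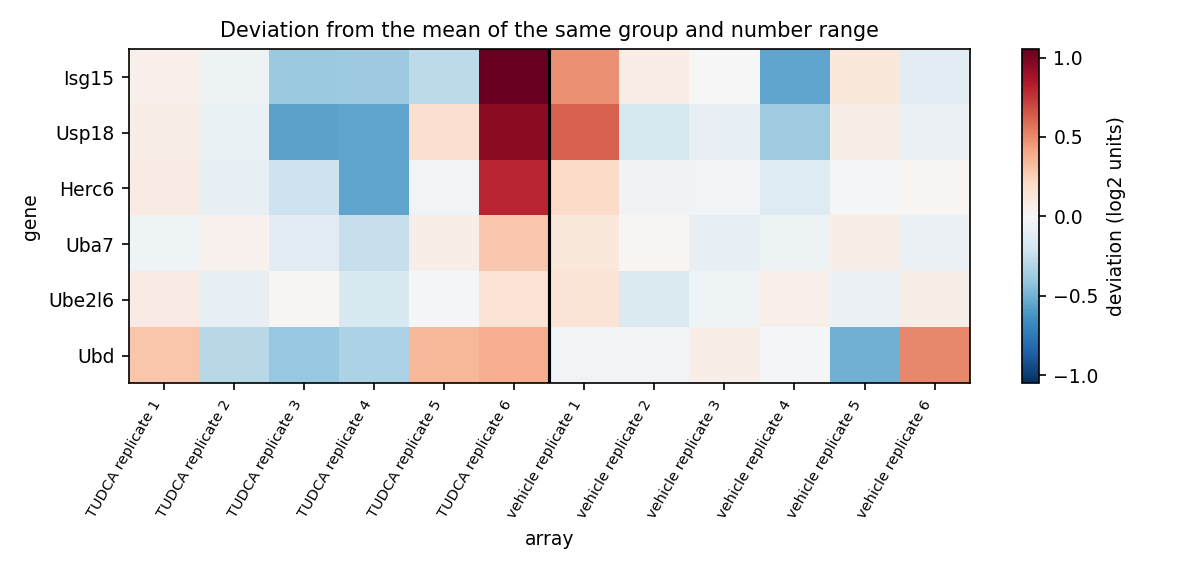
Deviation of each array (horizontal axis) from the mean of its group and number range, in log2 units by colour, for the 6 genes (vertical axis); the black line parts TUDCA from vehicle arrays. All 6 genes are above their mean in TUDCA replicate 6, Isg15 the most (1.05) and Ube2l6 the least (0.15). For Ubd vehicle replicates 5 and 6 deviate most. Their deviations are equal and opposite by construction, because they are the only vehicle arrays of the high range.

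TUDCA replicate 6 stood apart in interferon-induced genes more widely. It was the highest of the 6 TUDCA arrays for 22 of 23 measured genes of a type I interferon signature. The mean level of these genes was 8.81 on it, 7.88 to 8.18 on the other TUDCA arrays and 7.99 to 8.46 on the vehicle arrays. The same array was the lowest TUDCA array for 9 of 10 markers of stroma and muscle (mean level 9.10, against 9.42 to 9.75 on the other TUDCA arrays and 9.38 to 9.65 with vehicle) and had the lowest mean level of macrophage and dendritic cell markers (6.85). The part of these markers in its interferon-induced genes was not tested. Of the same 23 genes 3 were called lower and none higher: Ifit2, an antiviral protein (-1.03, limma adjusted p = 0.00531), Parp14, an ADP-ribosyltransferase (-0.52, adjusted p = 0.0215), and Oasl2, of the oligoadenylate synthetase family (-0.61, adjusted p = 0.0472). The median difference of this list was -0.24. The call of Ifit2 held whichever array was left out, that of Parp14 ended without TUDCA replicate 1 or 2 or vehicle replicate 6, and that of Oasl2 ended without any 1 of 10 arrays. All 3 ended without the range term (adjusted p = 0.132, 0.113 and 0.111 in limma). That of Oasl2 also ended after a second quantile normalisation, after centring the arrays on their medians, without a variance trend and with robust variance estimation (adjusted p from 0.0519 to 0.0716).

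The genes most like Isg15 in their deviations, over 12 arrays and among 21556 other probe sets that name 1 gene, were Gngt2 (Pearson's r = 0.98, Spearman's rho = 0.97), Dhx58, a sensor of viral RNA (0.97 and 0.96), St14, an epithelial membrane protease (0.96 and 0.93), Slfn4 (0.95 and 0.85) and Acadl, an enzyme of fatty acid oxidation (0.95 and 0.90). Those most like Ubd were Bmx (0.97 and 0.96), Nanos3 (0.97 and 0.94), Olfr229 (0.96 and 0.91), Serpinb1a (0.94 and 0.92) and Nnmt (0.92 and 0.95). Without the 2 arrays farthest from the median r stayed between 0.87 and 0.98 for these 10 genes. They were picked as the highest of a long ranking on 8 free values, so no test was made. None of the 10 passed the test of TUDCA against vehicle (adjusted p from 0.539 to 0.993 in limma). Olfr229 had a mean of 2.59 with TUDCA and 2.61 with vehicle, below the lowest 5% of the values on each array (2.96 to 3.08).

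Of 15 measured genes listed as partners of FAT10 or ISG15, none was called in either direction, and their median difference was 0.02. The list also holds Herc3 and Herc4, which belong to the family of Herc6 and are not established partners. Trim25 is in it and in the list of induced ligases. Uba6, the E1 enzyme of FAT10, was at 7.91 ± 0.04 (SD, n = 6) with TUDCA and 7.79 ± 0.18 (SD, n = 6) with vehicle (log2 difference 0.09, limma adjusted p = 0.686). Ube2z, its E2 enzyme, was at 9.79 ± 0.06 and 9.79 ± 0.05 (SD, n = 6 each; log2 difference 0.02, limma adjusted p = 0.896). Likewise none of 18 measured genes of other ubiquitin-like modifiers, such as those of SUMO and NEDD8, was called (median difference 0.06).

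Of 12 ubiquitin ligases induced by interferon, 2 were called lower and none higher, and all 12 had a negative difference, with a median of -0.24. Those called were Rnf31, the catalytic subunit of the ligase for linear ubiquitin chains (-0.29, limma adjusted p = 0.0295), and Rnf114 (-0.24, adjusted p = 0.0313). The call of Rnf31 ended without any 1 of 6 arrays and that of Rnf114 without any 1 of 7 (adjusted p up to 0.137). That of Rnf114 also ended after a second quantile normalisation (adjusted p = 0.0549) and without a variance trend (adjusted p = 0.0642).

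Among 19 measured genes for inducers and signal transducers, 3 were called lower and none higher, with a median difference of -0.10. These were the transcription factors Irf1 (-0.50, limma adjusted p = 0.0037), Stat2 (-0.46, adjusted p = 0.0133) and Irf8 (-0.49, adjusted p = 0.0235). The calls of Irf1 and Stat2 held whichever array was left out, and that of Irf8 ended without TUDCA replicate 1 or 2 (adjusted p = 0.0944 and 0.0967) and without the range term (adjusted p = 0.0964). The inducers of Ubd, named here after their values were seen, did not pass: Ifng was at -0.30 (adjusted p = 0.16) and Tnf at -0.43 (adjusted p = 0.124).

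**Figure D4:**
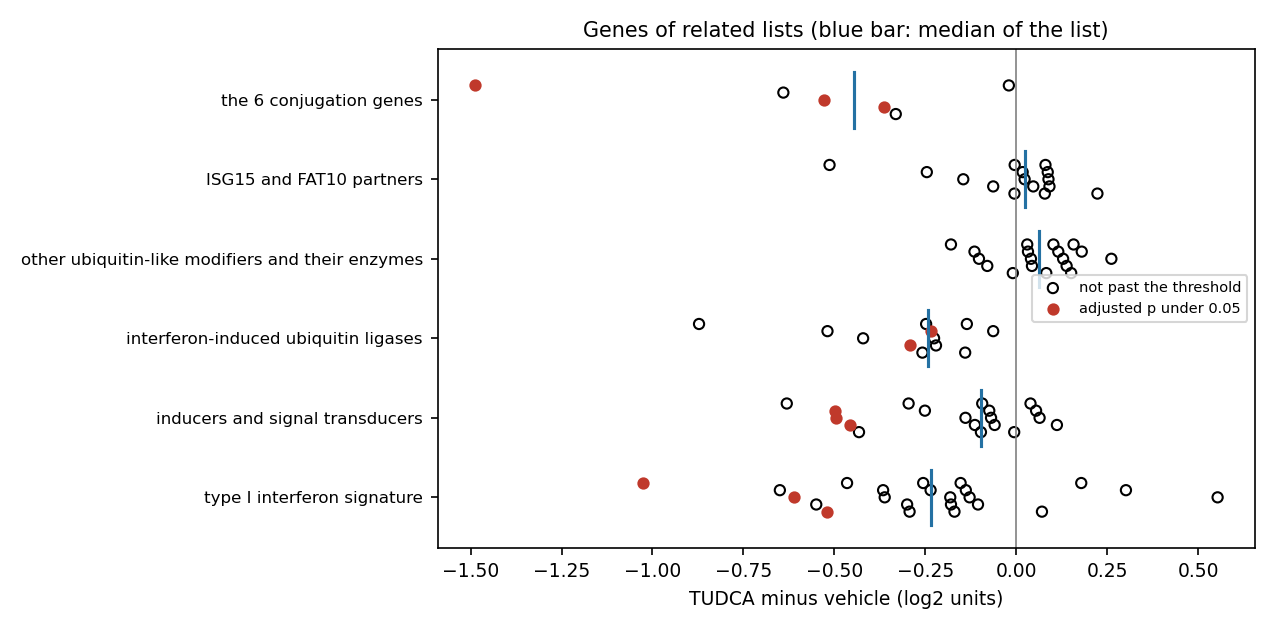
Log2 difference of TUDCA minus vehicle (horizontal axis) of each measured gene in the 6 conjugation genes and 5 related lists (vertical axis); filled red points passed an adjusted p of 0.05 in limma, open points did not, and blue bars are list medians. The medians of the partners and of the other ubiquitin-like modifiers are 0.02 and 0.06, and that of the 6 genes is -0.45.

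Markers of T and NK cells moved in the same direction as Ubd. Of 17 markers 16 had a negative difference and 6 were called lower (median -0.35), and none was at 0. Their mean level was 5.78 to 6.92 on the TUDCA arrays and 6.73 to 7.38 on the vehicle arrays. TUDCA replicate 2, the array with the lowest Ubd value, was the lowest of the TUDCA arrays for 14 of the 17. On TUDCA replicates 2, 1, 3 and 4 the mean marker level (5.78, 6.45, 6.66 and 6.92) and Ubd (6.48, 7.06, 7.82 and 7.89) rose in this order. TUDCA replicate 5 had a marker level of 6.84 and Ubd at 8.57. With TUDCA replicates 5 and 6 the order was not kept, nor was it among the vehicle arrays. TUDCA replicate 6 had the highest Ubd value of its group and a mean marker level of 6.51, below the 6.92 of TUDCA replicate 4. Vehicle replicate 5 had the lowest Ubd value of its group and a marker level of 7.20, above the 6.73 of vehicle replicate 2. Of 12 macrophage and dendritic cell markers 1 was called lower (mean level 6.85 to 7.22 with TUDCA and 7.15 to 7.41 with vehicle). Of 13 epithelial markers 1 was called higher (mean level 11.17 to 11.31 and 11.13 to 11.35). In whole tissue, fewer cells of a type and less RNA per cell cannot be told apart, and the part of these markers in the falls of Ubd, Uba7 and Ube2l6 was not tested.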

How the data were processed

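Gene expression was measured on 12 Affymetrix mouse gene arrays, 1 per mouse. The values are log2 intensities as the authors deposited them, with oligo and RMA named by the submitters' processing notes (no versions). Because RMA equalises array distributions, a change shared by all transcripts is invisible. The platform annotation gave 21557 probe sets 1 gene, 787 several and 1647 none, and all 23991 were tested. limma 3.58.1 in R 4.3.3 (lmFit, eBayes with a trend) was run with treatment and number range as terms, two-sided. The script was tested on simulated data. The table carries no detection calls, and the number of arrays limits the precision. Named genes were the 6 genes, up to 4 called genes of each list, the FAT10 enzymes, and the 5 most alike of Ubd and Isg15. The genes and lists were chosen with earlier results of these data known, and the IRF and kappaB motifs after the sequences had been seen. Promoter sequences are from RefSeq. Alternatives varied the range term, block, filter, scaling, eBayes settings, array weights, threshold and arrays.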

Additional observations from a re-analysis of the deposited data

Results flagged for a closer look

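Of 52 groups of 6 arrays (26 named genes in each treatment), 5 held an array whose gap to the nearest other array exceeded the 95% limit of Dixon's test for 6 samples, where chance flags about 5% of groups. Isg15 in TUDCA replicate 6 was at 9.92, the next TUDCA array being at 8.59. The same array was highest for Dhx58 (8.16, next 7.27) and Slfn4 (9.98, next 7.81), both named because they resemble Isg15. Ubd in vehicle replicate 5 was at 8.35, the next vehicle array being at 9.08. Serpinb1a, named because it resembles Ubd, was at 11.09 in vehicle replicate 6, the next being at 10.97. Genes picked for resembling Ubd or Isg15 do not give independent groups, so the count cannot be read against 5%.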

How the results depend on the processing

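In limma, with the replicate number as a block and the range kept in the fit, 0 of the 6 genes were called lower: Ubd was at -1.29 (adjusted p = 0.146), Uba7 at -0.48 (adjusted p = 0.0682), Ube2l6 at -0.33 (adjusted p = 0.193) and Isg15 at 0.035. In that fit 190 probe sets were lower and 85 higher, against 364 and 241 without the block. Usp18 was at -0.17. Of the 8 called genes of the lists, Stat2 kept its call (adjusted p = 0.0469) and 7 lost it: Ifit2 (0.066), Parp14 (0.0867), Oasl2 (0.0653), Irf1 (0.068), Irf8 (0.117), Rnf31 (0.116) and Rnf114 (0.153). With the block in place of the range, Ube2l6 was at -0.30 (adjusted p = 0.0838) and Isg15 at 0.12, Usp18 was at -0.15, and Irf8, Rnf31 and Rnf114 lost their calls (adjusted p = 0.0694, 0.073 and 0.0638). Without either, for Ube2l6 and Isg15, the values were -0.30 (adjusted p = 0.124) and 0.12. The labels do not say that a number is shared by paired mice. Of the 6 same-numbered pairs 3 correlated over 0.1 in their deviations, and in 4 the closest partner had the same number. In the low range alone Isg15 was at 0.050 and Herc6 passed at -0.74 (adjusted p = 0.0090). In the high range alone Ubd was at -0.63, Uba7 at -0.45, Ube2l6 at -0.18 (adjusted p = 0.532, 0.347 and 0.635), Uba6 turned to -0.0019, 0 of the 6 genes were called lower, and 3 probe sets were lower and 6 higher. The 8 called genes of the lists did not pass there either (adjusted p from 0.162 to 0.512), and in the low range alone Oasl2, Rnf114, Rnf31 and Stat2 did not (0.106 to 0.167). Quantile normalisation again (-0.35) and eBayes without trend (-0.36) ended the call of Ube2l6, and robust eBayes that of Ubd (-1.49). Array weights (Herc6 at -0.67) and an adjusted p threshold of 0.1 (-0.64) added Herc6, with 436 and 429 probe sets higher. Leaving out 1 array at a time, the differences ran from -1.89 to -1.17 for Ubd, -0.18 to 0.052 for Isg15, -0.43 to -0.28 for Ube2l6, -0.77 to -0.56 for Herc6 and -0.0047 to 0.053 for Ube2z. The 6 genes held 1 to 4 called lower, all probe sets 151 to 417 lower and 91 to 292 higher. The change of Ube2l6 minus that of Usp18 ran from -0.16 to 0.076, and r of Ubd and Isg15 from -0.055 to 0.50. The cause of these changes was not tested.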
